A study of Mus musculus with 12 samples.

Results

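IGHV7-3 was the heavy chain variable (V) gene of the single clonotype of VQ-D4, 1 of 4 primary myeloma lines whose B cell receptor transcripts were sequenced. Its clonotypes and sequences were selected on the first V gene named for each row in the deposited clone and alignment tables, and an aligned sequence also had to hold at least 50 V bases. The members were 1 of 16 heavy chain clonotypes and 277 of 53453 aligned heavy chain sequences with 50 V bases in all 6 heavy chain libraries. All 6 lines were CD138+B220- bone marrow myeloma cells of VQ mice, which combine the Vκ*MYC transgene, an activated Nras allele (Nras LSL Q61R/+) and IgG1-Cre. VQ-D4, VQ-D5, VQ-D1 and VQ-D2 were primary cells, whereas 4935 and 4938 had been established as cell lines from mice that received VQ-D2. In this model MYC is driven by kappa light chain control elements, and Cre is expressed with IgG1, so the lines share both alleles and no line without them was part of the heavy chain libraries. Each line had 1 heavy chain library, so no difference between lines has a replicate check and no test was made. Intervals are exact Clopper-Pearson 95% intervals and cover counting error only.

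A heavy chain V region is assembled when a V, a D and a J segment are joined in a developing B cell, with untemplated N bases added at the joints. The joint forms CDR3, the third complementarity-determining region, and CDR1 and CDR2 lie within the V segment between framework regions. In germinal centres the deaminase AID introduces somatic hypermutations into V and also starts class switching, which replaces the first constant region with that of IgG, IgA or IgE. A substitution present in the founding cell of a clone is found in all its transcripts and is called fixed here, and a later one is found in part of them.

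The germline V segment is shown first because every later value is a position in it. It is given from base 1 to the end of framework 3, as the deposited germline alignments hold it, with CDR1 and CDR2 in capitals. The germline V allele had 304 bases and 101 codons with 0 stop codons.
IGHV7-3 germline V: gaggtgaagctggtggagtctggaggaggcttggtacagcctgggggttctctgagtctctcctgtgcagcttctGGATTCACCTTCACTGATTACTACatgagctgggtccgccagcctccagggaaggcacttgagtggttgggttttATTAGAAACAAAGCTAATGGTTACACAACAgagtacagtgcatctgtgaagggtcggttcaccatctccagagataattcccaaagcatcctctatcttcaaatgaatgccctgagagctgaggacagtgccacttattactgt
The clonotype's CDR3 identifies the rearrangement. The N bases between the segments, as the clone table places them, are in capitals.
VQ-D4 CDR3: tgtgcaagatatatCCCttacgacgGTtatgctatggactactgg
The J segment continued after CDR3 into the constant region, whose first 20 bases are in capitals and give the class of the transcript.
VQ-D4 J and constant region: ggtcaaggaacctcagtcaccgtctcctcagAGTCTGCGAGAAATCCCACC

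The CDR3 had 45 bases, or 15 codons, with 0 stop codons. By the clone table, 14 of these came from IGHV7-3, 3 were N bases, 8 came from the D segment, 2 were N bases and 18 came from IGHJ4. The 304-base germline V used for positions ends before the last of those 14, so the edge between V and the N bases depends on the reference. The V and J parts carried 0 changes from germline. The D segment had 2 candidates with the same score of 40, IGHD2-4 and IGHD2-7, so the gene was not resolved between them. The clone table gave the constant gene as IGHA, the constant region of IgA. In the RefSeq table (mm10, GRCm38.p6) Ighv7-3, gene 629822, lies on chromosome 12 from 114153180 to 114153644 and is annotated as a V segment pseudogene. The transcripts themselves held an open frame. The 57 bases of leader before V, which encode the signal peptide, were as follows and are shown because they set the start codon.
VQ-D4 leader: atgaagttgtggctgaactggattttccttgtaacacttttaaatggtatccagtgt
This leader was present exactly in 215 of the 243 sequences that began at V base 1 (88.5%). The consensus read from the ATG through V, CDR3 and J into the constant region was open for 450 bases, or 150 codons, with 0 stops. It was joined from 2 kinds of sequence, because none of the 277 reached from the first to the last V base.

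IGHV7-3 took 1277 of 1277 clone counts in VQ-D4 (100%, interval 99.7% to 100%) and all 277 aligned sequences with 50 V bases (98.7% to 100%). These values chose the gene and are given as a description. In the other 5 libraries IGHV7-3 had 0 counts. A count of 0 allows up to 0.0652% of 4602 counts in VQ-D1, 0.117% of 2568 in VQ-D2, 0.138% of 2181 in VQ-D5, 0.730% of 411 in 4935 and 0.804% of 373 in 4938. The limits of the derived lines were wider because their tables were smaller. The 5 libraries also had 0 aligned IGHV7-3 sequences with 50 V bases. That allows up to 25% of 12 such sequences in 4935 and 4.17% of 72 in 4938, so little can be said of these lines. In VQ-D1, VQ-D2 and VQ-D5 it allows at most 0.0618%. Shorter matches named for IGHV7-3 numbered 7 in VQ-D1, 3 in VQ-D5, 1 in VQ-D2, 1 in 4938 and 0 in 4935. They spanned 14 to 31 bases at 71.0% to 92.9% identity, against 45 and 49 bases at 100% for the 2 short matches in VQ-D4. The exact CDR3 was found on either strand in 32 of 342 VQ-D4 sequences and in 0 of 294 in 4935, 826 in 4938, 9195 in VQ-D1, 27215 in VQ-D2 and 23019 in VQ-D5. Sequences with a junction were fewer, 33 in VQ-D4, 12 in 4935, 64 in 4938, 3814 in VQ-D1, 851 in VQ-D2 and 6124 in VQ-D5. In the other direction, the leading CDR3 of each other line was found in 0 VQ-D4 sequences. The other 65 VQ-D4 sequences held no V alignment of 50 bases, and 50 of them were assigned to the kappa locus.

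The constant region bases after J were also read in other lines. The same 20 bases followed J in 29 of 32 VQ-D4 sequences with a complete junction (90.6%), in 715 of 805 in VQ-D2 (88.8%), 10 of 12 in 4935 (83.3%), 61 of 64 in 4938 (95.3%) and 2140 of 5966 in VQ-D5 (35.9%). They followed it in 0 of 3730 sequences in VQ-D1, whose clonotypes were IGHG2B. VQ-D4 thus shared the start of its constant region with the other lines listed as IGHA.

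The 277 sequences were of 2 kinds with different ends. In 246 sequences the V alignment stopped before V base 304. Of these, 243 started at V base 1 and 238 stopped within 5 bases of the median end, base 211. None had a junction, and their J calls numbered 21 over 7 to 8 bases. The other 31 sequences reached V base 304. They started between bases 27 and 229, 17 of them at base 47 or 48, and all 31 had an IGHJ4 call with a median of 49 bases. A junction was present in 30, and in 27 it equalled the clonotype's CDR3. Among the 277 sequences, the rearrangement was therefore read on the 31 alone, and the leader and the first V bases on the 246. Of the aligned heavy chain sequences in VQ-D4, 33 had a junction, against 1277 counts in the clone table. The sources used here do not say if a count stands for 1 read or 1 molecule.

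Coverage fell steeply after base 210. The number of sequences was 243 at V base 1, 269 at base 100, 271 at base 200, 250 at base 210 and 31 at base 220, and it was 31 at base 304. The first 213 bases were covered by at least 100 sequences. Framework 1, CDR1, framework 2 and CDR2 were thus read mainly from the 246 sequences, and the end of framework 3, from base 220 on, from 31 to 33.

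**Figure D1:**
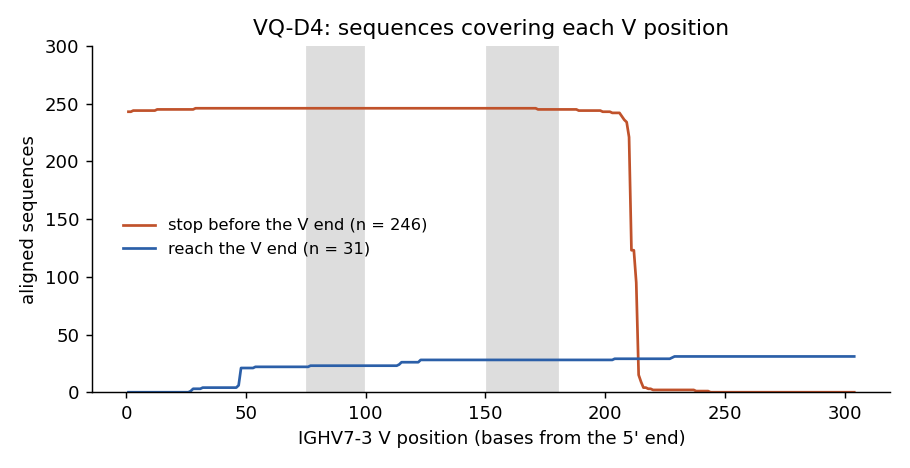
Number of aligned VQ-D4 sequences (vertical axis) at each IGHV7-3 V position in bases (horizontal axis), for the 246 sequences that stop before the V end and the 31 that reach it, with CDR1 and CDR2 shaded grey. The first kind falls to near 0 just after position 210, and the second rises to 31 towards the V end.

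Both kinds also carried inverted stretches of their own V segment beside the aligned part. Such a stretch of at least 18 bases was found after V in 236 of the 246 sequences (95.9%), with a median of 25 bases and median ends at V bases 29 and 53. The commonest last 24 bases of these sequences were shared by 103 of 246 (41.9%) and are the reverse complement of V bases 29 to 52. Both are shown so that the inverted stretch can be read against V.
Last 24 bases: gagaacccccaggctgtaccaagc
V bases 29 to 52: gcttggtacagcctgggggttctc
Among the 31 sequences that reached the V end, 26 (83.9%) began with an inverted stretch, with a median of 268 bases running from V base 128 on through CDR3 and J. In 23 of the 31 sequences the inverted and forward copies could be compared base by base. They were equal at 3053 of 3066 positions (99.6%). The forward copy differed from germline at 11 positions and the inverted copy at 2, and at 0 positions did both carry the same change. How the inverted stretches arose was not tested.

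No fixed substitution was found in IGHV7-3. Over the 284 V positions with at least 5 distinct sequences, 10 bases being left out at each alignment end, 0 had a base other than germline in 50% or more of the sequences. The least germline position was base 190, where 83.8% of 228 distinct sequences still held the germline base. Of the 277 sequences, 52 (18.8%) were identical to germline over their whole V alignment. The share was 35 of 246 (14.2%) among the sequences that stopped before the V end and 17 of 31 (54.8%) among those that reached it. Identical V alignments were seen 15, 12, 10 and 4 times for the 4 most repeated V sequences, and each of the 4 had 0 mismatches. By contrast, 224 of the 234 distinct V sequences were seen once. V sequences counted as distinct where either their bases or their alignment ends differed. The 4 most repeated differed only in their ends, for example bases 1 to 213 against 1 to 210. Most distinct V sequences were thus found a single time, and part of the variety counted this way is where alignments start and end.

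Single-base differences from germline were spread unevenly. Over the 234 distinct V sequences they made up 2.37% of 44901 bases (interval 2.23% to 2.51%). The rate was 2.49% (2.34% to 2.64%) in the sequences that stopped before the V end and 1.23% (0.921% to 1.61%) in those that reached it. These intervals did not overlap, although bases of 1 sequence are not independent. In the first kind the rate rose along V. It was 0.0943% at bases 21 to 40 (4 of 4240), 1.03% at 61 to 80, 2.58% at 121 to 140, 4.67% at 161 to 180, 7.73% at 181 to 200 (322 of 4163) and 11.1% at 201 to 220 (39 of 350, interval 8.04% to 14.9%). In the second kind the same stretch, 181 to 200, had a rate of 0.556% (2 of 360, interval 0.0674% to 1.99%). Its higher rates lay elsewhere and rested on few bases or largely on single sequences. From 21 to 40 the rate was 20% of only 10 bases. From 41 to 60 the rate was 7.62% of 105 bases, with 5 of the 8 differences on 1 sequence. From 241 to 300 it was 2.65% of 1134 bases, with 26 of the 30 differences on 1 other sequence. That sequence held 27 of all 52 differences of the second kind. Without it the rate was 0.370% from 241 to 300 and 0.630% (0.408% to 0.929%) over the whole of V, and 10 of the 21 distinct sequences had no difference.

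By region, the sequences that stopped before the V end differed from germline at 0.587% of bases in framework 1, 1.25% in CDR1, 2.14% in framework 2, 4.11% in CDR2 and 8.23% in framework 3. The order followed the position along V, and the frameworks after CDR1 had higher rates than CDR1. The sequences that reached the V end had 3.91% in framework 1, 0.923% in CDR1, 0.498% in framework 2, 0% in CDR2 (0 of 540 bases) and 1.47% in framework 3, or 0.328% in framework 3 without the sequence that differed most. With alignment ends left out, the first kind read framework 3 (bases 181 to 294) almost only up to base 203. It had 80 distinct sequences there and 15 at base 204. The second kind read framework 1 only from base 37 on, over 307 bases. The framework 1 and framework 3 rates of the first and second kind thus cover unlike stretches. Neither CDR stood above both of its neighbouring frameworks, as far as these were read, in either kind. Transitions, the changes between A and G or between C and T, were 308 of 1012 differences (30.4%, interval 27.6% to 33.4%) in the first kind and 10 of 52 (19.2%, 9.63% to 32.5%) in the second, where 27 of the 52 lay on 1 sequence. In the first kind 352 of the 1012 differences (34.8%) equalled the next germline base and 239 (23.6%) the previous one. In the second kind these were 9 of 52 (17.3%) and 13 (25%). The cause was not tested.

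**Figure D2:**
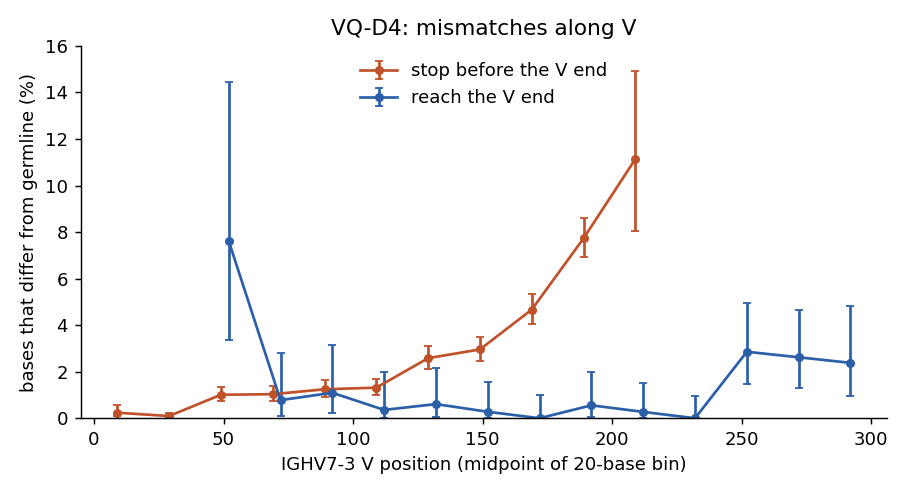
Share of bases that differ from germline, in percent (vertical axis), by 20-base bin of V position (horizontal axis) in distinct VQ-D4 IGHV7-3 sequences, for bins with at least 100 bases; bars are 95% counting intervals. Sequences that stop before the V end rise to 7.73% at positions 181 to 200 and 11.1% at 201 to 220, where sequences that reach the V end are at 0.556% and 0.272%; 1 sequence carries most of the second kind's differences after 240.

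Partial substitutions, present in 10% to under 50% of the distinct sequences at a position, were found at 6 of 280 positions (2.14%). A137C, in framework 2, was carried by 25 of 231 distinct sequences (10.8%) and changes a glutamate codon to alanine. The other 5 lay in framework 3. A182G was carried by 29 of 229 (12.7%, glutamate to glycine) and C186A by 31 of 229 (13.5%, tyrosine to a stop codon). G188T was carried by 34 of 229 (14.8%, serine to isoleucine) and G190C by 33 of 228 (14.5%, alanine to proline). T193A was carried by 24 of 227 (10.6%, serine to threonine). Positions are V bases counted from 1 at the 5′ end, with the germline base first. Thus 5 of the partial substitutions replaced an amino acid and 1 made a stop, and 4 of the 6 fell within the 9 bases that end at position 190. Those 9 bases were chosen on earlier values of these data, so the 4 of 6 is a description only. Each of these 4 equals the germline base that follows it.

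The carriers were all of 1 kind. Each of the 6 substitutions had 0 carriers among the 18 distinct sequences that reached the V end and covered the position. Taken alone, the sequences that stopped before the V end gave 8 partial substitutions over 193 positions with enough coverage. The sequences that reached the V end gave 0 over 57 positions, which lay at bases 238 to 294. At the 6 positions only 18 distinct sequences of this kind gave coverage, under the minimum of 20, so no call could be made there. With repeated sequences counted too, this kind gave 0 over 237 positions. The 10% threshold cut through a continuous range. Another 7 substitutions lay between 8% and 10%, from T148G at 8.23% to G201C and G202A at 9.76% each, and A185G at 8.73% was among them.

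These 9 bases are shown with the bases on either side because it held most partial substitutions. In the germline line the 9 bases are in capitals. In the other lines capitals mark each base that differs from germline, and each line is 1 sequence of the library from V base 171 to 204.
Germline: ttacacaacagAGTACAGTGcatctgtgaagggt
A182G alone: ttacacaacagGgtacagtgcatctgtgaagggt
A185G alone: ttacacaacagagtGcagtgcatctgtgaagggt
C186A alone: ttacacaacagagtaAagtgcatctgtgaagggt
G188T alone: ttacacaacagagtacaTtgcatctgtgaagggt
G190C alone: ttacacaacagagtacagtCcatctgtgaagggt
Most variants: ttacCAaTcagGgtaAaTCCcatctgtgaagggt
The last line carried 5 of its variants within the 9 bases and others just before them.

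A variant in the 9 bases that end at position 190 was present in 107 of 229 distinct sequences that covered all 9 bases (46.7%, interval 40.1% to 53.4%). It was present in 106 of 211 sequences that stopped before the V end (50.2%, 43.3% to 57.2%) and in 1 of 18 that reached it (5.56%, 0.141% to 27.3%). In 17 sequences that reached the V end the stretch was read again in the inverted copy, with 0 variants there. The 9 bases were not alone in this. In the sequences that stopped before the V end, 35.8% had a variant at positions 173 to 181 and 41.4% at 191 to 199, against 1.90% at 11 to 19. The 9 bases that end at position 190 were chosen on earlier values of these data and the other stretches were laid out around them, so their rank among them is no result.

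**Figure D3:**
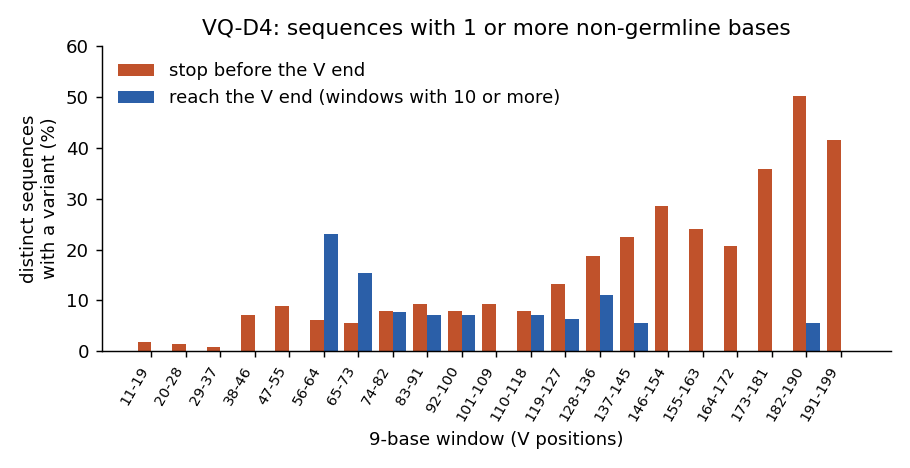
Share of distinct VQ-D4 IGHV7-3 sequences with 1 or more non-germline bases, in percent (vertical axis), in consecutive 9-base windows of V position (horizontal axis), for sequences that stop before the V end and, where at least 10 cover the window, those that reach it. The first kind reaches 50.2% in the window that ends at 190, between windows at 35.8% and 41.4%, and the second kind is at 5.56% there.

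The variants of the stretch lay partly on the same sequences, in many different combinations. Of the 229 sequences, 122 carried none, 63 carried 1, 28 carried 2, 14 carried 3 and 2 carried 5. Thus 44 of the 107 carriers (41.1%) held at least 2, and 108 of the 171 variant bases (63.2%) shared their sequence with another. The 44 sequences held 29 different combinations, of which 20 were seen once, and the most frequent was seen in 4. The 5 commonest variants, G188T, G190C, C186A, A182G and A185G, form 10 pairs, and each pair shared between 1 and 10 sequences. The largest overlap was C186A with G188T, in 10 sequences, which is 32.3% of the C186A carriers and 29.4% of the G188T carriers. G188T was found in 12.1% of the sequences without C186A. Likewise G190C was found in 9 of 29 A182G carriers and 12% of the others, and C186A in 6 of 20 A185G carriers and 11.96% of the others. In 9 of the 10 pairs the second variant was more frequent among carriers of the first than among the others. The exception was A182G with A185G, shared by 1 sequence, where A185G was found in 3.45% of A182G carriers and 9.5% of the others. Some gaps were small, as for G190C in 15% of A185G carriers and 14.4% of the others. The others also include the 18 sequences that reached the V end, which held none of these 5 variants. The pairs were not compared within the sequences that stopped before the V end alone. No pair of these variants was thus always found together, and each of the 5 was the only variant of the stretch in between 9 and 14 sequences. The remaining variants seen in at least 2 sequences were T189C in 12 sequences (5.24%, silent), G190T in 4, and C186G and G188A in 2 each. Carriers among the sequences that stopped before the V end had a median of 1.5 further variants at bases 11 to 171, and the 105 non-carriers had a median of 1.

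The variants did not lie at the very ends of the V alignments, but they lay near them. Of 171 variant bases in the stretch, 0 were within 10 bases of an alignment end, 9 were within 20 and 156 (91.2%) were within 30. The median distance to the 3′ end of the V alignment was 24 bases, with a range of 13 to 118. This is where the stretch itself sits in these sequences, since their alignments ended a median of 20 bases after position 190. A182G was 24 to 31 bases from the end in all its carriers and C186A was 20 to 27. In the sequences that reached the V end the same bases were at least 114 bases from that end. Since 0 variants lay within 10 bases of an end, leaving out 10 bases at each end could remove none of them. Requiring the V alignment to run 20 bases beyond both sides of the stretch left 97 of 207 sequences with a variant (46.9%). Distance from the V end, the kind of sequence and position along V moved together here and cannot be told apart within this library.

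The V reading frame was open in most sequences. With the 10 bases at each end left out, 191 of 234 distinct sequences had neither a stop codon nor a gap (81.6%, interval 76.1% to 86.4%). The share was 171 of 213 (80.3%, 74.3% to 85.4%) in the sequences that stopped before the V end and 20 of 21 (95.2%, 76.2% to 99.9%) in those that reached it, and these intervals overlapped. Each sequence was judged over the V bases it covered, and none ran from the first to the last V base. These shares thus rest on different codons and are not like for like. A gap was present in 1 sequence and stop codons in 42. There were 47 stop codons in all, at 8 codons of the 101. Codon 62, bases 184 to 186, which encodes tyrosine in germline, held 31 of the 47 (66.0%) and was a stop in 31 of 229 covering sequences (13.5%). In 28 sequences it was the only stop. The next most affected codon, bases 115 to 117, was a stop in 6 of 227 (2.64%), and the others in 1 to 3 sequences. Most stop codons thus lay at the codon that C186A changes, and 1 of the 31 stops at codon 62 was on a sequence that reached the V end. The deposited annotation called a stop codon in 54 of the 277 sequences, 52 of them among those that stopped before the V end. It called 30 sequences productive and 67 not, and left the 180 others blank. Of the 30 productive calls, 29 were on sequences that reached the V end, which hold the junction.

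The leading V genes of the other primary lines were read for the same pattern along V. Their fixed substitutions, 6 in IGHV3-8 of VQ-D5, 8 in IGHV4-1 of VQ-D2 and 5 in IGHV3-2 of VQ-D1, were left out of the rates. The remaining rate was 2.37% in VQ-D4, against 2.66% in VQ-D5, 2.39% in VQ-D2 and 1.73% in VQ-D1, so that of IGHV7-3 lay within the range of the others. At V positions 21 to 40 the rate was 0.141% in VQ-D4 and 0.934%, 1.13% and 0.420% in the others, in the same order. At 181 to 200 it was 7.16% in VQ-D4 and 4.30%, 4.13% and 2.41% in the others. At 201 to 220 it was 5.58% in VQ-D4 and 6.02%, 5.47% and 4.35% in the others, which had their highest rates there. The place of IGHV7-3 among the lines thus changed with the stretch compared. The V alignments also ended at different places, at a median of base 212 in VQ-D4, 241 in VQ-D5, 225 in VQ-D2 and 294 in VQ-D1. In every line, sequences that stopped before V position 280 had a higher rate at 181 to 200 than those that reached it. The rates were 7.73% against 0.556% in VQ-D4, 4.79% against 0.615% in VQ-D5, 4.24% against 0.521% in VQ-D2 and 3.17% against 0.863% in VQ-D1. Among the sequences that reached position 280 the rates lay between 0.521% and 0.863%, and among those that stopped between 3.17% and 7.73%. At 201 to 220 the sequences that stopped were at 11.1% of 350 bases in VQ-D4, 6.70% in VQ-D5, 5.66% in VQ-D2 and 6.18% in VQ-D1, and those that reached position 280 were between 0.272% and 0.941%. The number of partial substitutions was 6 in VQ-D4, 6 in VQ-D5, 2 in VQ-D2 and 1 in VQ-D1. Sequences that held an inverted 20-base piece of themselves were found in all 4 lines, in 59.2% of the leading V sequences of VQ-D4, 65.6% in VQ-D5, 13.6% in VQ-D2 and 57.8% in VQ-D1. VQ-D4 had by far the fewest leading V sequences, 277 against 22221, 25914 and 3486. Whether the inverted pieces or the depth bear on the rates was not tested.

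**Figure D4:**
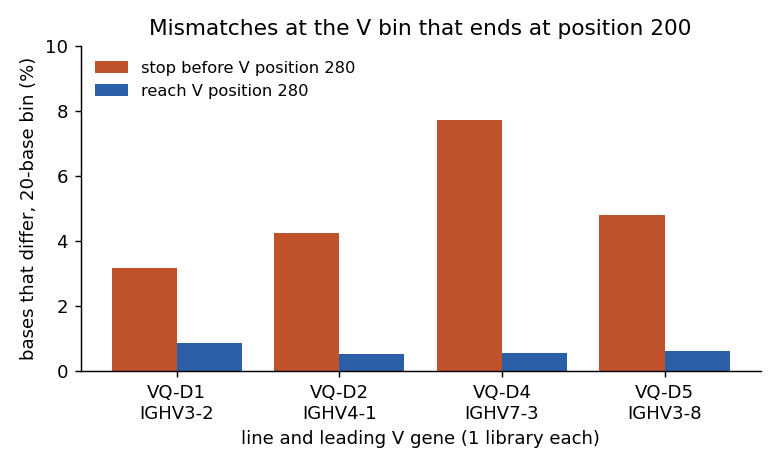
Share of bases that differ from germline at V positions 181 to 200, in percent (vertical axis), in distinct sequences of the leading V gene of each primary line (horizontal axis, 1 library each, fixed substitutions left out), split by whether the V alignment reaches position 280. In all 4 lines the sequences that stop earlier are higher, and VQ-D4 has the highest of these at 7.73%.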

How the data were processed

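Heavy chain transcripts of 6 lines were sequenced. The deposited clone tables give a count per clonotype, as whole numbers, with column names as MiXCR exports them, per the file headers. The deposited alignment tables give 1 sequence per molecular identifier group with germline alignments and the V identity in percent, in the column format of IgBLAST, per the file headers. Tool versions and read filters were not given in the sources used here, and the submitters' processing notes name mm10 as the build. Light chain tables were not used.

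V alignments were read base by base against the germline row of the same table. Duplicated V alignments were counted once, and 10 bases were left out at each alignment end. A substitution was fixed at 50% or more of at least 5 sequences, and partial at 10% to under 50% of at least 20 sequences with at least 3 carriers. Named were all fixed and partial substitutions, bases at positions 182 to 190 seen in at least 2 sequences, and codons that were stops in at least 5% of sequences. Other items named for comparison were chosen after their values were seen. The split into sequences that reach the V end and sequences that do not was also chosen after the data were seen. The members and lists were chosen with earlier results of these data known. Inverted stretches were found by local alignment to the reverse complement (match 2, mismatch -3, at least 18 bases). The 20-base inverted pieces were exact matches. For other lines V position 280 stood for the V end. For a count of 0, an upper limit of 3 counts was used. No test was made, because each line has 1 library, and sequences are not replicates.

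The caller was tested on simulated data shaped like the 234 distinct sequences of VQ-D4: of 80 fixed substitutions it found 80, and of 80 planted in 25% of sequences it found 80, with 1 false partial call in 20 runs. The simulated errors were even along V. In the real sequences that stopped before the V end the rate rose to 7.73% at bases 181 to 200. The planted 25% also lay above the real partial shares, 10.6% to 14.8%. The runs therefore give no false call rate for that stretch or for such shares. Biopython 1.88, Python 3.11.15, matplotlib 3.10.9, pandas 2.3.3, scipy 1.17.1 and numpy 2.4.6 were used.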

Additional observations from a re-analysis of the deposited data

How the results depend on the processing

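The count of fixed substitutions was 0 under all 8 alternatives run. Of the 45 alternatives run over the 7 results, 33 kept the value within its counting interval or, for a count, within 1.5 times. The share of clone counts, 100%, was 97.0% among aligned sequences with a CDR3 (33 sequences). The 6 partial substitutions became 32 at a threshold of 5%, 0 at 20%, and 4 with repeated sequences counted. They became 0 in sequences that reached the V end, distinct or all. Distinct sequences of that kind were too few at the 6 positions for a call. The mismatch rate of 2.37% became 2.20% with 20 bases left out at each end, 0.207% in the 10 V sequences seen at least 2 times, 1.23% in sequences that reached the V end, and 0.630% in those without the 1 that differed most. The share with a variant in the 9 bases that end at position 190, 46.7%, became 40.1% with repeated sequences counted and 5.56% in sequences that reached the V end. The share with an open frame, 81.6%, became 95.2% in sequences that reached the V end. The cause of these shifts was not tested. The alternatives by V end, and the one without that sequence, were chosen after seeing the data. The alternative that needs at least 2 reads per sequence was not run, because no column used here gives that number. No paired analysis was possible because each line has 1 heavy chain library and no result comes from a test. Depth limits V from base 220 on, where 31 to 33 sequences cover each base.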
